A study of Saccharomyces cerevisiae with 24 samples.

Results

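Ribosome footprints were set against mRNA, gene by gene, in growing wild-type yeast, to give the translational efficiency (TE) of each gene. The genes were those with an RPKM (reads per kilobase of gene, scaled to the depth of the library) of 5 or more in all 4 libraries, the footprint and mRNA libraries of wild-type isolates 172 and 600. This held for 4680 of the 6304 entries that carry values in the deposited tables. The study comprised 24 libraries of Saccharomyces cerevisiae in the CEN.PK background, in which wild-type Dim1 or its variants E85Q or D87E were combined with growth on methionine or a 2 h starvation for sulfur. Dim1 adds methyl groups to adenosines of the small-subunit rRNA. The cells described here carried wild-type DIM1 (WT) and were in log phase in medium whose sulfur source was 1 mM methionine. Growing E85Q cells (isolates 623 and 625) and growing D87E cells (isolates 887 and 888) in the same medium entered the fit for their spread and are compared with WT at the end. Each isolate gave a footprint and an mRNA library from the same cells, harvested by filtration and freezing, with cycloheximide present from lysis onwards. Footprints of 18 to 34 nt were counted, and mRNA was total RNA depleted of rRNA and sequenced with its strand.

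A translating ribosome shields a short stretch of mRNA from nuclease, and the shielded pieces, sequenced in bulk, show how many ribosomes sat on each message. Dividing footprints by mRNA removes the part set by the amount of message and leaves a relative measure of how densely each message carries ribosomes. It depends on how often ribosomes start and how fast they finish, and it does not separate these steps. In yeast, messages of highly expressed housekeeping genes are known for dense loading, and several regulators are known for messages on which upstream reading frames or a retained intron hold ribosomes back.

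Recovered from the steps of the low RPKM values, the reads behind the footprint values numbered 53.5 and 57.6 M in isolates 172 and 600, and those behind the mRNA values 32.1 and 24.3 M. Pairs of values are given for isolate 172 and then isolate 600 throughout. At these depths an RPKM of 5 in a gene of 1 kb stood for 267 and 288 footprint reads and for 161 and 121 mRNA reads, so counting error was small beside the differences named here. DIM1 itself had 74.5 and 74.3 RPKM in footprints and 78.0 and 77.4 RPKM in mRNA. Its log2 TE of -0.08 ± 0.04 did not differ from the median gene (adjusted p = 0.11). Expression values carry no sequence, so they do not check the allele.

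TE is given as the log2 ratio of footprint to mRNA RPKM, centred in each isolate on the median of the 4680 genes, and errors are standard errors (SE) of the limma fit with n = 2 isolates. Before centring, that median was -0.002 and 0.035, so the median gene had nearly equal RPKM in both assays. The spread across genes was narrow for most of the genome. The mean log2 TE had an SD of 0.707 across genes, 4139 genes (88.4%) lay within 2-fold of the median gene, and the 10th and 90th percentiles stood at 0.570-fold and 1.70-fold. The first and 99th percentiles were 0.311-fold and 3.40-fold. The isolates gave nearly the same order, with Pearson r = 0.968 and Spearman rho = 0.961 across the 4680 genes, which share the libraries and are not independent replicates. The median gap between isolates was 0.10 on the log2 scale, and 4318 genes lay on the same side of the median gene in both.

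Tested against the median gene with limma and Benjamini-Hochberg adjustment over all 4680 genes, 1838 genes (39.3%) were higher and 1844 genes (39.4%) lower at an adjusted p below 0.05. At least 2-fold was reached by 259 of the higher genes (5.53%) and by 282 of the lower genes (6.03%). Both sets are drawn from the whole genome, and they differ in kind. The 259 genes had a median footprint level of 178 RPKM on a median mRNA level of 63.1 RPKM and a median length of 603 bases. The 282 genes had 8.83 RPKM in footprints on 22.2 RPKM in mRNA and a median length of 2290.5 bases. The filter acts unevenly here, because a poorly translated gene needs more mRNA to reach 5 RPKM in footprints: 277 entries with mRNA of 5 RPKM or more in both isolates had footprints under 5 in both and were not tested, against 25 entries of the opposite kind. Just inside the filter lay TDP1 and YAP6, whose lowest library was a footprint library at 5.01 RPKM. Just outside lay AGA1 with 5.00 RPKM in mRNA and MTQ1 with 4.99 RPKM in footprints. The p-values measure the spread between isolates.

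**Figure D1:**
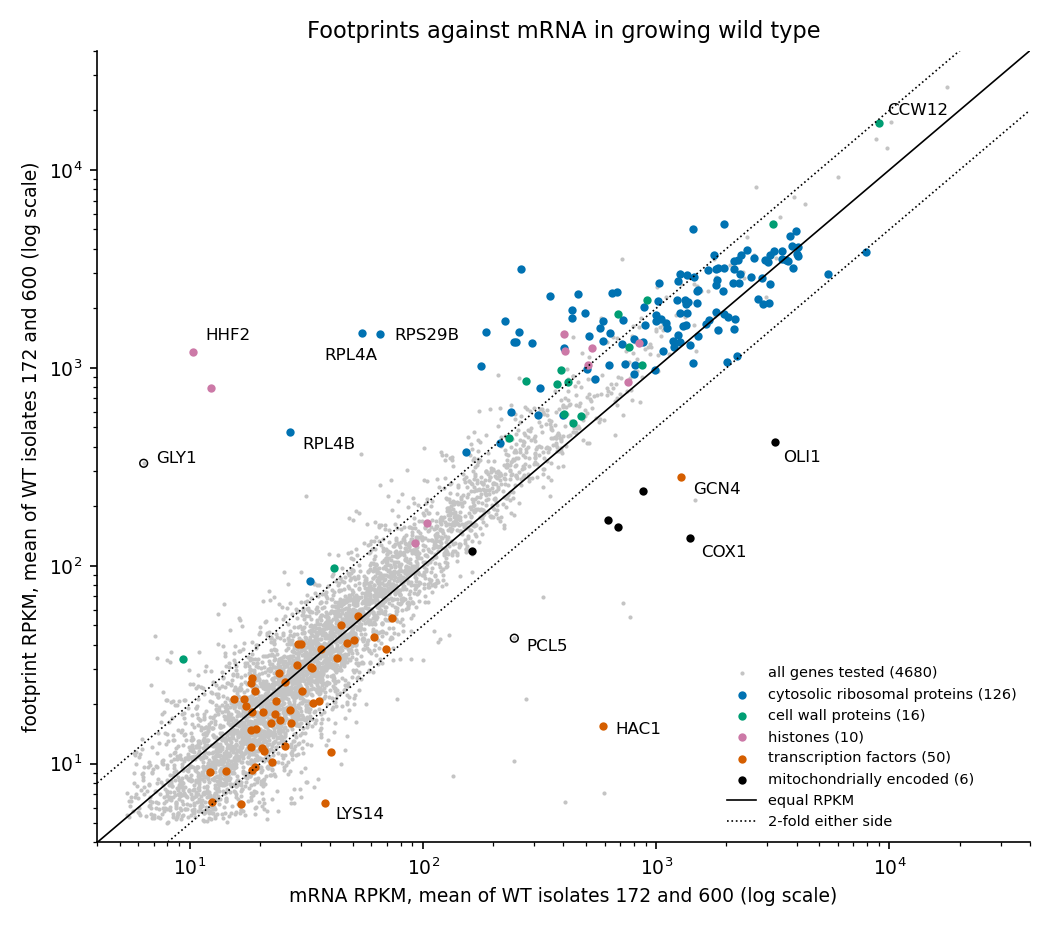
Mean footprint RPKM against mean mRNA RPKM of WT isolates 172 and 600, both on log scales, for the 4680 genes tested, with 5 gene groups in colour. Most genes lie between the dotted lines at 2-fold either side of equal RPKM, and ribosomal protein and cell wall genes lie mostly above the line of equality. HAC1, GCN4 and the tested mitochondrially encoded genes other than ATP6 lie far below that line.

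The highest TE of all belonged to the genes for histone H4. HHF2 had 1348 and 1049 RPKM in footprints on 15.5 and 5.14 RPKM in mRNA, a log2 TE of 7.04 ± 0.47 (adjusted p = 4.6e-06). HHF1 had 812 and 769 RPKM in footprints on 19.4 and 5.14 RPKM in mRNA, a log2 TE of 6.29 ± 0.44 (adjusted p = 1.4e-05), with its ratio in D87E 887 dropped from the fit because mRNA was listed at 0 there. In both genes footprints agree between isolates far better than mRNA does, and the mRNA lies near the filter, so the size of the ratio rests on small mRNA values. HHF1 and HHF2 encode the same protein from similar sequences, and how reads shared by near-identical copies were counted is not given in the sources used here. GLY1, the threonine aldolase of glycine synthesis, followed with 291 and 368 RPKM in footprints on 7.05 and 5.61 RPKM in mRNA, a log2 TE of 5.68 ± 0.22 (adjusted p = 5.8e-07). RPL4A and RPL4B, the copies encoding ribosomal protein L4, reached 5.16 ± 0.40 and 4.24 ± 0.38. RPL4A had 1284 and 1716 RPKM in footprints on 18.6 and 90.5 RPKM in mRNA, and its ratio in D87E 888 was dropped because mRNA was listed at 0.

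Low mRNA of these genes was also found in the growing mutants. GLY1 mRNA stood between 2.96 and 7.50 RPKM in the other 4 growing libraries, and HHF2 mRNA between 4.12 and 16.6 RPKM, with footprints of 215 to 366 RPKM for GLY1 and 1168 to 1375 RPKM for HHF2. What sets the low mRNA values was not tested. The deposited values were masked at positions that are not given in the sources used here, so the sizes of these ratios are uncertain, that of GLY1 included. The 8 other histone genes lay far lower than those of histone H4: all 8 were called above the median gene and 4 of them at least 2-fold, with a median log2 TE of 0.83, but HTA1 at 0.16 ± 0.06 (adjusted p = 0.039) turned to -0.01 when only genes of 20 RPKM or more were kept. HHT2 and HTB2, for histones H3 and H2B, had 1.87 ± 0.10 and 1.24 ± 0.05. The median over all 10 histone genes was 1.13. Histones together took 1.08% and 1.04% of all footprint RPKM and 0.556% and 0.538% of all mRNA RPKM.

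Of the 15 highest genes that are neither dubious nor overlapping, 9 encode cytosolic ribosomal proteins. RPS29B had 1356 and 1608 RPKM in footprints on 63.5 and 66.7 RPKM in mRNA, a log2 TE of 4.49 ± 0.17 (adjusted p = 5.7e-07). RPS30A and RPS30B followed at 3.66 ± 0.25 and 3.07 ± 0.20, and RPS4A and RPS4B at 2.92 ± 0.17 and 2.55 ± 0.09. RPC10, a small subunit shared by the 3 nuclear RNA polymerases, stood out from its own complexes with 212 and 239 RPKM in footprints on 28.6 and 34.5 RPKM in mRNA, a log2 TE of 2.83 ± 0.15 (adjusted p = 1.9e-06). MNC1 had a log2 TE of 2.72 ± 0.11, and YPR145C-A, a short frame of 237 bases, had 2.62 ± 0.25.

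**Figure D2:**
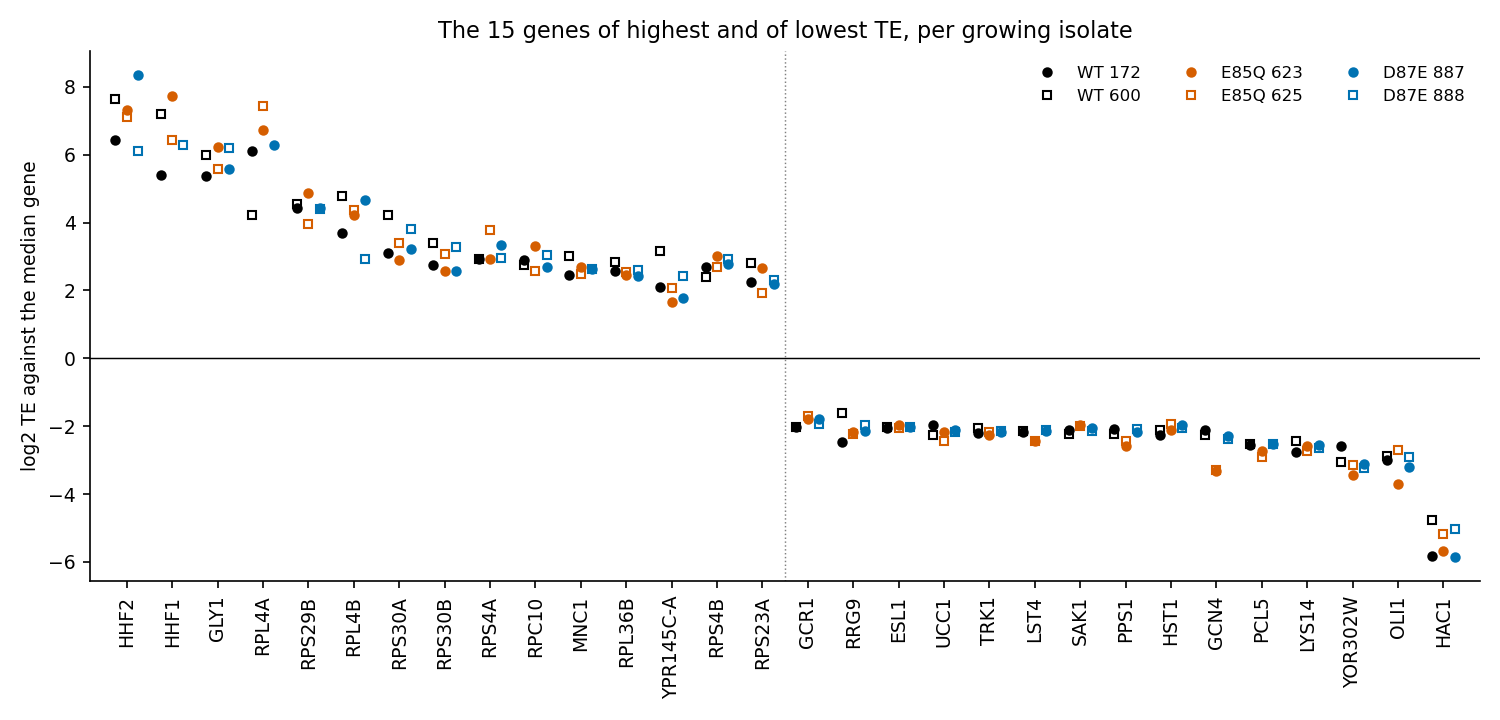
Log2 TE against the median gene of the 15 highest and the 15 lowest genes in the 2 growing isolates each of WT, E85Q and D87E, with the ratios that had no mRNA value left out. Every point of the 15 highest genes lies above 0 and every point of the 15 lowest lies below 0, and GCN4 is lower in both E85Q isolates than in the other 4.

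Beyond the ribosomal proteins and histones, the highest genes were mostly short. HOR7, of 180 bases, had 3188 and 3885 RPKM in footprints on 761 and 661 RPKM in mRNA, a log2 TE of 2.29 ± 0.13 (adjusted p = 2.1e-06). MFA2 and MFA1, which encode the mating pheromone a-factor, had 2.11 ± 0.14 and 1.83 ± 0.12. TOM6, a small subunit of the mitochondrial import pore, had 399 and 392 RPKM in footprints on 95.6 and 105 RPKM in mRNA, a log2 TE of 1.96 ± 0.09. OST4, a very small subunit of the oligosaccharyltransferase, had 1.84 ± 0.24, and PMP3 and PMP2, proteolipids of the plasma membrane, had 1.61 ± 0.05 and 1.69 ± 0.08. LSO2, a small ribosome-bound protein, had 2.24 ± 0.19. MSA2 was an exception in length at 1092 bases, with 37.1 and 36.5 RPKM in footprints on 8.68 and 7.88 RPKM in mRNA and a log2 TE of 2.14 ± 0.09.

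Cytosolic ribosomal proteins, which make up the bulk of ribosome mass, were called above the median gene in most cases: 53 of 73 genes of the 60S subunit, with 7 below, and 37 of 53 genes of the 40S subunit, with 6 below, against 39.3% above and 39.4% below over all genes. At least 2-fold above were 22 of the 60S genes and 16 of the 40S genes, and RPS31 was the only one at least 2-fold below, at -1.06 ± 0.10. The list medians were 0.68 for 60S and 0.60 for 40S proteins. Most of these genes exist as near-identical pairs, so reads may be split between copies, and values of single copies are uncertain. The copies of a pair differed by a median of 0.56 in log2 TE, and by 1 or more in 9 of 51 pairs. Summed over both copies, the 51 pairs had a median log2 TE of 0.68 and ranged from -0.67 (RPL33) to 4.65 (RPL4). A sum does not bring back reads left out of both copies, so the sums are uncertain too if shared reads were dropped or masked. Of these pairs 39 lay above 0 in both isolates, 8 lay below 0 in both, and 16 were at least 2-fold above.

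The wide range of TE among the pairs lay in the mRNA values. Footprint sums, averaged over isolates, spanned 2.83-fold, with 1972 RPKM for RPL4 at the low end and 5577 RPKM for RPS18 at the high end. The mRNA sums spanned 81.3-fold, with 81.4 RPKM for RPL4 and 6618 RPKM for RPS26. On the log2 scale the SD across pairs was 0.277 for footprints and 1.15 for mRNA. A ribosome holds 1 copy of nearly every ribosomal protein. Among the 24 ribosomal protein genes outside these pairs, 14 were called above and 2 below, with a median log2 TE of 0.28, from -1.06 for RPS31 to 1.78 for RPL29. Across these genes the SD on the log2 scale was 0.325 for footprints and 0.568 for mRNA, so mRNA varied less than among the pairs. Why mRNA was so much lower for some pairs was not tested.

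**Figure D3:**
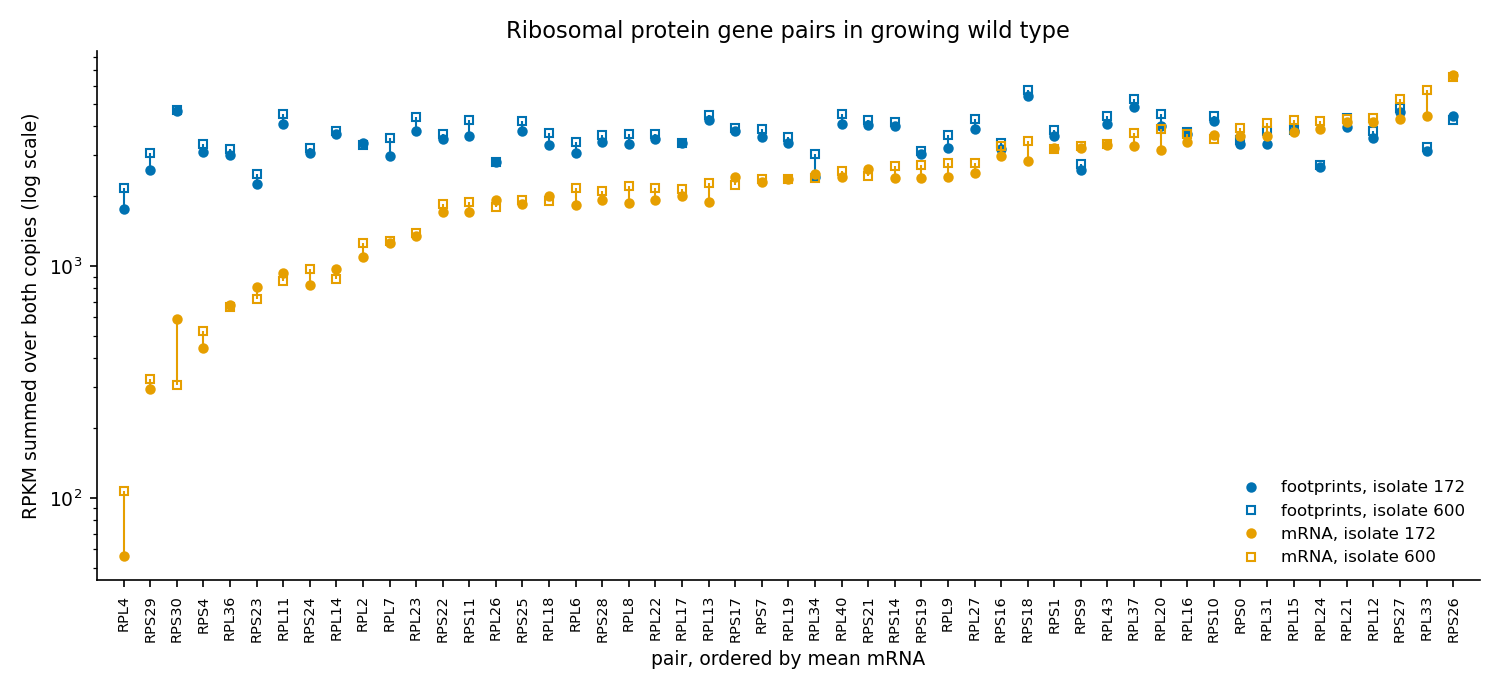
RPKM summed over both copies of each of 51 ribosomal protein gene pairs, on a log scale, for footprints and mRNA of WT isolates 172 and 600, ordered by mean mRNA. Footprint sums stay within 2.83-fold from pair to pair, while mRNA sums climb 81.3-fold from RPL4 on the left to RPS26 on the right.

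Cell wall proteins, the respiratory chain and glycolysis were further groups in which nearly all genes lay above the median gene. All 16 tested cell wall genes were called above and 8 of them at least 2-fold, with a median log2 TE of 0.96. CCW12, a major mannoprotein of the wall, had 16930 and 17490 RPKM in footprints on 8425 and 9572 RPKM in mRNA, a log2 TE of 0.92 ± 0.12 (adjusted p = 0.0002). CCW14 reached 1.63 ± 0.09, HSP150 1.43 ± 0.11 and PIR3 1.86 ± 0.15. TIR1, the remaining wall gene, was under the filter, with 3.87 and 5.23 RPKM in footprints and 0.772 and 0.227 RPKM in mRNA.

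Nuclear-encoded subunits of the respiratory chain and the ATP synthase were called above in 34 of 37 cases and below in none, with a median log2 TE of 0.65 and 12 genes at least 2-fold. Small subunits led the list. QCR8 of the cytochrome bc1 complex had 267 and 276 RPKM in footprints on 80.7 and 65.4 RPKM in mRNA, a log2 TE of 1.88 ± 0.10. SDH4, the membrane anchor of succinate dehydrogenase, had 1.85 ± 0.06, and ATP19 and ATP17 of the ATP synthase had 1.55 ± 0.12 and 1.35 ± 0.05. QCR7, of 384 bases, was lowest at -0.11 ± 0.05 (adjusted p = 0.08), next to the large catalytic subunit ATP2 at -0.10 ± 0.05 (adjusted p = 0.095). SDH1, of 1923 bases, lay at 0.93 ± 0.06, so size did not order the whole list. Genes of the TCA cycle were called above in 9 of 11 cases, with a median of 0.49. IDH1, a subunit of isocitrate dehydrogenase, was highest at 0.86 ± 0.05, and LSC2 was the only one called below, at -0.13 ± 0.05.

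Glycolytic and fermentative enzymes held the 2 highest footprint levels of all genes tested, averaged over the isolates. In isolate 600 alone CCW12 exceeded PDC1. The log2 TE of these enzymes ranged from -0.18 for PFK2 to 0.94 for TDH1. TDH3, the main glyceraldehyde-3-phosphate dehydrogenase, had 26070 and 26120 RPKM in footprints on 17010 and 18280 RPKM in mRNA, a log2 TE of 0.55 ± 0.14 (adjusted p = 0.007). PDC1, the main pyruvate decarboxylase, had 17700 and 17260 RPKM in footprints on 9913 and 10340 RPKM in mRNA, a log2 TE of 0.77 ± 0.10. In all, 17 of 19 genes were called above, none reached 2-fold, and the median was 0.61. The exceptions were the subunits of phosphofructokinase, PFK2 at -0.18 ± 0.06 (adjusted p = 0.024) and PFK1 at 0.03 ± 0.05 (adjusted p = 0.52). These 19 genes took 13.1% and 12.6% of all footprint RPKM and 10.8% and 11.1% of all mRNA RPKM. Cytosolic ribosomal proteins took 30.3% and 31.8% of footprint RPKM and 29.2% and 30.7% of mRNA RPKM.

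**Figure D4:**
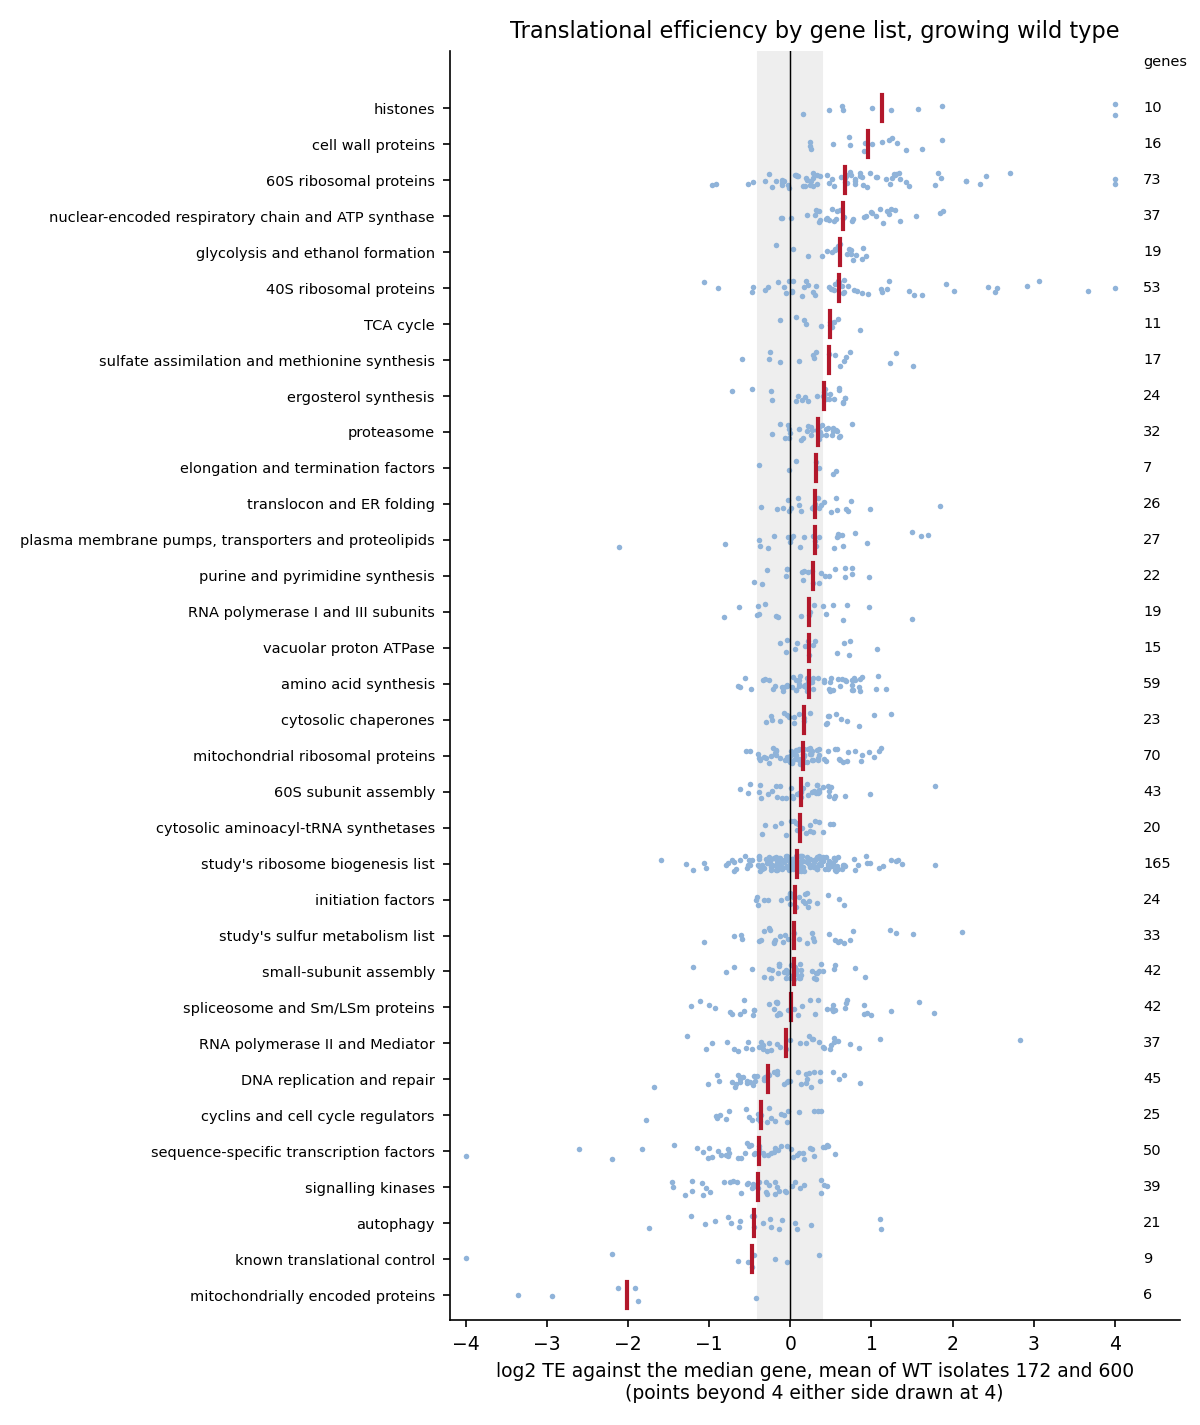
Log2 TE against the median gene of every tested member of 34 gene lists, as the mean of WT isolates 172 and 600, with the list median in red and the number of genes at the right. The grey band spans the 25th to 75th percentiles of all 4680 genes, and list medians run from 1.13 for histones to -2.02 for mitochondrially encoded proteins.

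Biosynthetic pathways lay moderately above the median gene. Ergosterol synthesis had 18 of 24 genes called above and 4 below, with a median log2 TE of 0.42; both HMG-CoA reductases were among the 4 below, HMG2 at -0.72 ± 0.05 and HMG1 at -0.22 ± 0.05. Purine and pyrimidine synthesis had 16 of 22 above and 3 below (median 0.27), with ADE2 highest at 0.97 ± 0.06. Amino acid synthesis had 35 of 59 above and 9 below (median 0.23), from -0.65 ± 0.06 for CPA1 to 1.17 ± 0.05 for the threonine synthase gene THR4. HOM2, which makes aspartate semialdehyde on the way to methionine and threonine, was among the highest metabolic enzymes, with 1265 and 1119 RPKM in footprints on 542 and 419 RPKM in mRNA and a log2 TE of 1.30 ± 0.08. CYS3, which forms cysteine from cystathionine, had 406 and 453 RPKM in footprints on 163 and 181 RPKM in mRNA, a log2 TE of 1.30 ± 0.05.

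Protein quality control and membrane machinery followed the same direction at smaller size. Beside these counts, 39.3% of all genes were called above and 39.4% below. Keeping only genes of 20 RPKM or more moved the median gene up by 0.17 on the log2 scale. The proteasome had 24 of 32 genes called above and 1 below, with a median of 0.34 and a range only from -0.22 ± 0.06 for RPN10 to 0.76 ± 0.06 for PRE7. Translocon and endoplasmic reticulum folding genes had 18 of 26 above and 2 below (median 0.31), and the vacuolar proton ATPase had 10 of 15 above and 1 below (median 0.23). Cytosolic chaperones had 12 of 23 above and 4 below (median 0.17, about the size of that move of the median gene). SIS1, an Hsp40 co-chaperone, led them with 323 and 316 RPKM in footprints on 144 and 124 RPKM in mRNA, a log2 TE of 1.24 ± 0.05, and SSB2, a ribosome-associated Hsp70, was lowest at -0.29 ± 0.08. Plasma membrane pumps and transporters spread widely: HXT1, a low-affinity glucose transporter, had 1.50 ± 0.07, whereas TRK1, the potassium transporter, had 6.18 and 6.51 RPKM in footprints on 28.2 and 26.3 RPKM in mRNA and a log2 TE of -2.12 ± 0.06 (adjusted p = 1.5e-07).

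Factors that assemble ribosomes or act with them in translation had list medians between 0.04 and 0.31. Over all genes 39.3% were called above and 39.4% below, so counts near these shares are not particular to a list. Elongation and termination factors had 4 of 7 genes called above and 1 below, with a median of 0.31; YEF3, the fungal elongation factor 3, was the 1 below, at -0.39 ± 0.07. Initiation factors had 10 of 24 above and 5 below, with a median of 0.05 that turned to -0.11 when only genes of 20 RPKM or more were kept. TIF5 (eIF5) was highest at 0.66 ± 0.04, and the 4 lowest were GCD6, GCD7, GCD1 and GCD2, all subunits of the exchange factor eIF2B, from -0.43 ± 0.05 to -0.33 ± 0.04. GCN3, a further eIF2B subunit, went the other way and was called above, at 0.16 ± 0.06 (adjusted p = 0.044). Aminoacyl-tRNA synthetases had 10 of 20 above and 3 below (median 0.12), and mitochondrial ribosomal proteins 36 of 70 above and 12 below (median 0.16). For 60S assembly 22 of 43 were above and 11 below (median 0.14), and for small-subunit assembly 13 of 42 were above and 11 below (median 0.04). The medians of these last 4 lists also turned negative at 20 RPKM or more, where the median gene itself moved up by 0.17 on the log2 scale. Of the 165 tested genes that the deposited tables mark as ribosome biogenesis, 67 were above, near the share over all genes, and 50 below. Their median of 0.09 turned to -0.09 at 20 RPKM or more. RNA polymerases I and III had 9 of 19 genes above and 8 below, with a median of 0.24 that also turned to -0.04 at 20 RPKM or more. RPA190, the largest subunit of polymerase I at 4995 bases, lay at -0.82 ± 0.04, and RPC25, at 639 bases, lay at 0.97 ± 0.08.

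The lowest gene that is neither dubious nor overlapping was HAC1, the transcription factor of the unfolded protein response, whose message carries an intron that holds back translation until Ire1 removes it. HAC1 had 11.8 and 19.2 RPKM in footprints on 671 and 514 RPKM in mRNA, a log2 TE of -5.30 ± 0.26, or 39.5-fold below the median gene (adjusted p = 1.2e-06). GCN4, the activator of amino acid synthesis genes whose leader holds upstream reading frames, had 294 and 267 RPKM in footprints on 1283 and 1258 RPKM in mRNA. Its log2 TE was -2.20 ± 0.06, or 4.59-fold below (adjusted p = 1.9e-07). GCN4 footprints nonetheless exceeded those of the median tested gene, at 32.8 RPKM. YOR302W is the short frame of 78 bases in the CPA1 leader that encodes the arginine attenuator peptide. It had 266 and 165 RPKM in footprints on 1606 and 1336 RPKM in mRNA, a log2 TE of -2.82 ± 0.12, and the CPA1 frame behind it had 236 and 216 RPKM in footprints on 348 and 354 RPKM in mRNA, at -0.65 ± 0.06. Both frames lie on the same message, yet their mRNA values differed widely, and why was not tested. A frame of 78 bases offers few positions to count, so the size of its ratio is uncertain.

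Genes known for control by upstream frames or similar means were mostly low, with 7 of 9 tested called below and 1 above and a median log2 TE of -0.47. Besides HAC1, GCN4 and CPA1 these were HOL1 (-0.52 ± 0.06), the G1 cyclin gene CLN3 (-0.47 ± 0.07), YAP1 (-0.45 ± 0.05) and CAD1 (-0.19 ± 0.06). INO2 lay at -0.04 ± 0.09 (adjusted p = 0.68), and SCO1 was the 1 above, at 0.35 ± 0.05. The list was drawn up from cases known for low translation, so its direction is not independent evidence of any rule.

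Regulators as a group carried few ribosomes. Sequence-specific transcription factors were called below in 33 of 50 cases and above in 9, with a median of -0.39 and 9 genes at least 2-fold below; another 9 of the list did not pass the filter. LYS14, the activator of lysine synthesis, had 5.91 and 6.80 RPKM in footprints on 39.8 and 36.2 RPKM in mRNA, a log2 TE of -2.60 ± 0.08 (adjusted p = 2.2e-07). GCR1, an activator of glycolytic genes outside the list, had 6.73 and 6.70 RPKM in footprints on 27.5 and 26.6 RPKM in mRNA, at -2.03 ± 0.06, whereas most glycolytic enzymes lay above the median gene. PUT3 (-1.83 ± 0.04), ARG81 (-1.43 ± 0.06), BAS1 (-1.15 ± 0.07) and ARG80 (-1.07 ± 0.06), all regulators of amino acid or purine pathways, were at least 2-fold below. INO4 was highest at 0.55 ± 0.09. Together the 59 listed factors took 0.164% and 0.160% of footprint RPKM and 0.512% and 0.472% of mRNA RPKM.

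Kinases of signalling pathways were called below in 28 of 39 cases and above in 5, with a median of -0.40. HSL1, TOR2, TOR1, PKH2, GCN2, BCK1, RIM15 and IRE1 were the 8 at least 2-fold below. TOR2, a kinase of growth control, had 6.93 and 6.63 RPKM in footprints on 19.6 and 17.0 RPKM in mRNA, a log2 TE of -1.44 ± 0.06 (adjusted p = 7.5e-07), and GCN2, the kinase that controls GCN4 translation, lay at -1.21 ± 0.06. SNF1, the energy-sensing kinase, was highest at 0.46 ± 0.05, while SAK1, a kinase that activates Snf1, had 6.47 and 6.19 RPKM in footprints on 27.8 and 28.3 RPKM in mRNA, at -2.16 ± 0.05. PCL5, the cyclin that directs Pho85 to degrade Gcn4, had 43.5 and 42.6 RPKM in footprints on 255 and 237 RPKM in mRNA, a log2 TE of -2.53 ± 0.05 (adjusted p = 1.5e-07). Other genes among the lowest were HST1 (-2.18 ± 0.06), PPS1 (-2.17 ± 0.06), LST4 (-2.15 ± 0.05), UCC1 (-2.11 ± 0.09), ESL1 (-2.04 ± 0.05) and RRG9 (-2.04 ± 0.17).

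Cell cycle, replication and autophagy genes shared this direction. Cyclins and cell cycle regulators were called below in 18 of 25 cases and above in 3 (median -0.36), from -1.78 ± 0.05 for SWE1, the kinase that delays mitosis, to 0.38 ± 0.04 for CDC28, the cell cycle kinase. DNA replication and repair genes were called below in 26 of 45 cases and above in 10 (median -0.28). RAD1 was lowest at -1.68 ± 0.07, and POL30, the sliding clamp PCNA, had 219 and 208 RPKM in footprints on 135 and 132 RPKM in mRNA, at 0.66 ± 0.04. Autophagy genes were called below in 14 of 21 cases and above in 2 (median -0.44, though 0.42 over the 2 genes left at 20 RPKM or more). ATG8 and ATG3, the ubiquitin-like protein of the autophagosome and the enzyme that conjugates it, were the 2 above, at 1.11 ± 0.07 and 1.12 ± 0.07, and ATG5 was lowest at -1.74 ± 0.06. RNA polymerase II and Mediator had 15 of 37 above and 18 below, and the spliceosome 17 of 42 above and 17 below, both close to the shares over all genes, and both medians changed sign between alternatives.

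Mitochondrially encoded genes had the lowest median of any list, at -2.02. They are translated by mitochondrial ribosomes inside the organelle, and 6 of 8 were tested. Whether footprints of the counted sizes capture mitochondrial ribosomes as well as cytosolic ones was not tested. The ratios of these genes may therefore not be on the same scale as those of the other lists, and their rank does not show weak translation. OLI1, subunit c of the ATP synthase, had 440 and 409 RPKM in footprints on 3488 and 2955 RPKM in mRNA, a log2 TE of -2.94 ± 0.20 (adjusted p = 5.2e-06). COX2, COX3 and COB lay between -1.88 ± 0.21 and -2.13 ± 0.21, and COX1, which overlaps intron-encoded frames, lay at -3.36 ± 0.24. COX2 and COB also overlap other annotated genes. ATP6 was not called, at -0.42 ± 0.23 (adjusted p = 0.13). The 2 untested genes went the other way: ATP8 had 131 and 125 RPKM in footprints on 1.09 and 2.53 RPKM in mRNA, and VAR1, a mitochondrial ribosomal protein, had 15.2 and 15.4 RPKM in footprints on 4.30 and 5.94 RPKM in mRNA. The 8 genes took 0.165% and 0.145% of footprint RPKM and 1.15% and 0.934% of mRNA RPKM.

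Some messages were present with almost no footprints and so fell outside the test. RAS2, a GTPase of the cAMP pathway, had 3.11 and 0 RPKM in footprints on 269 and 226 RPKM in mRNA. Its footprints stood at 10.2 to 15.1 RPKM in the 4 growing mutant libraries, with mRNA of 164 to 335 RPKM there. YLL053C, an annotated frame that overlaps another gene, had 3.68 and 2.74 RPKM in footprints on 256 and 277 RPKM in mRNA. The intron-encoded mitochondrial frames AI1 and AI2 had 2.18 to 4.58 RPKM in footprints on 782 to 1066 RPKM in mRNA, and SCEI, another mitochondrial endonuclease frame, had 0.637 and 0.696 RPKM on 93.4 and 69.6 RPKM. YOL029C, a frame with no annotated role here, had 0.059 and 0.055 RPKM in footprints on 31.8 and 28.5 RPKM in mRNA. The tables were masked at positions that are not given in the sources used here, and the part of masking in a missing signal was not tested. The lowest ratios of all, YBR191W-A at -6.41 ± 0.26 and YDR133C at -5.99 ± 0.07, belong to frames marked dubious.

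A few genes of sulfur metabolism and sulfur-poor growth, chosen after their values were seen, had higher footprints in isolate 600 than in isolate 172. MET3, which activates sulfate as the first step of its assimilation, had 26.2 and 54.4 RPKM in footprints on 13.0 and 13.3 RPKM in mRNA, and its log2 TE of 1.51 ± 0.33 (adjusted p = 0.0032) was not called without isolate 600, at 1.02. YCT1, a cysteine transporter, had 21.2 and 47.1 RPKM in footprints on 6.67 and 7.71 RPKM in mRNA, a log2 TE of 2.12 ± 0.26. PDC6, a minor pyruvate decarboxylase poor in sulfur amino acids, had 23.0 and 51.3 RPKM in footprints on 2.95 and 3.07 RPKM in mRNA and was under the filter. In all 3 genes mRNA was nearly level between isolates. In sulfur-starved cells of the same isolates MET3 footprints stood at 7275 and 7755 RPKM. Growing footprints of MET3, YCT1, PDC6 and SOA1 were 0.296% to 0.360% of the starved level in isolate 172 and 0.577% to 0.702% in isolate 600. In mRNA the same percentages ran from 0.0613% to 0.286% and from 0.0565% to 0.296%. In growing E85Q the footprint percentages were 0.561% to 0.868% in isolate 623 and 1.20% to 1.60% in isolate 625. In growing D87E they were 0.0688% to 0.166% in isolate 887 and 0.0276% to 0.0921% in isolate 888, a wider range over the 4 genes than in the WT isolates. The log2 TE of MET3 in isolate 888 was -1.04 and that of YCT1 -0.51. In the WT isolates SUL1 lay within the footprint ranges of the 4 genes, at 0.297% and 0.657%. MET5, MET14, MET16 and MET17 lay above those ranges, at 1.01% to 1.88% in isolate 172 and 1.29% to 2.05% in isolate 600. Whether reads of starved cells entered the growing footprint libraries was not tested. Within the list of sulfate assimilation and methionine synthesis, 12 of 17 genes were called above and 2 below (median 0.48). Among the abundant enzymes of the list, SAM2 and SAM1, the S-adenosylmethionine synthetases, had 0.66 ± 0.05 and 0.61 ± 0.06, and MET6, the methionine synthase, had 1220 and 1116 RPKM in footprints on 968 and 913 RPKM in mRNA, at 0.30 ± 0.05. Of the 33 tested genes that the deposited tables mark as sulfur metabolism, 15 were above and 10 below (median 0.05, but -0.01 at 20 RPKM or more and -0.09 without isolate 600), with MET30 lowest at -1.06 ± 0.08.

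Gene length, which the choice of genes did not use, went with TE. Across the 4673 genes with an annotated length, which share the libraries, Spearman's rho was -0.51. The median log2 TE was 0.37 in quartile 1 of length (78 to 792 bases), 0.13 in quartile 2, -0.05 in quartile 3 and -0.41 in quartile 4 (1923 bases and over). At least 2-fold above were 164 genes of quartile 1 and 3 of quartile 4, and at least 2-fold below were 25 of quartile 1 and 165 of quartile 4. Without ribosomal protein, histone and mitochondrial genes the medians were 0.36, 0.11, -0.06 and -0.42. The lists differ in length in the same direction, with median lengths of 399 bases for histones, 462 for the respiratory chain and 2301 for kinases, so their medians and length are not separate measurements. The part of length in any list's median was not tested.

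**Figure D5:**
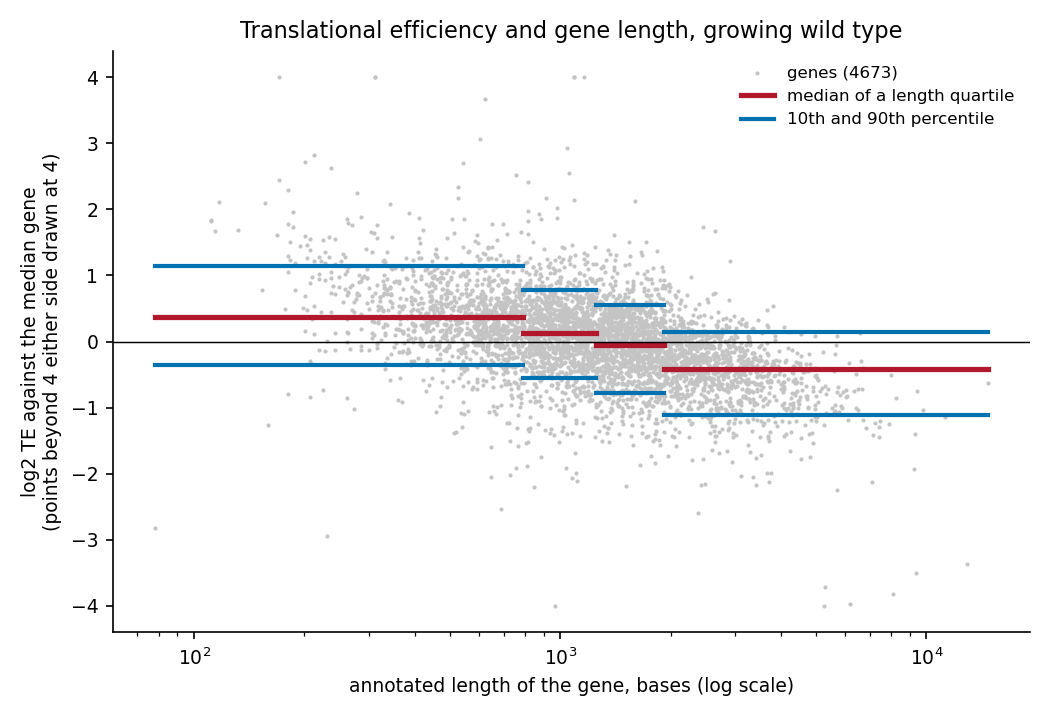
Log2 TE against the median gene, as the mean of WT isolates 172 and 600, plotted against annotated gene length on a log scale for 4673 genes. The red lines, medians over each quartile of length, step down from 0.37 to -0.41, and the blue lines at the 10th and 90th percentiles step down with them.

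Abundant messages also had higher TE. To keep the same mRNA value out of both axes, mRNA was taken from one isolate and TE from the other. With mRNA of isolate 600 and TE of isolate 172, Spearman's rho across 4680 genes was 0.34, and the medians over quartiles of mRNA, low to high, were -0.22, -0.22, 0.05 and 0.32. The reverse choice gave a rho of 0.30 and medians of -0.18, -0.19, 0.06 and 0.28. The lower 2 quartiles were level with each other, and the rise lay in the upper 2. The filter of 5 RPKM in footprints keeps out genes of low TE mainly where mRNA is low. Taking mRNA from the other isolate does not remove this, so the medians of the lower quartiles may be raised by the filter. Codon use, base composition and introns were not analysed here.

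The pattern was shared by both Dim1 variants in the same medium. Of the 259 genes at least 2-fold above the median gene in WT, 255 to 259 lay on the same side in each growing E85Q and D87E isolate, and 196 to 223 were at least 2-fold there. Of the 282 genes at least 2-fold below, all lay on the same side in each, and 238 to 248 were at least 2-fold. The WT libraries chose these genes, so the counts describe and do not test the likeness. Pearson's r of each mutant isolate with the WT mean ran from 0.962 to 0.978 across genes. Tested directly, 2 of 4680 genes (0.0427%) differed between WT and E85Q, and 553 (11.8%) had an unadjusted p below 0.05. GCN4 was higher in WT, with 294 and 267 RPKM in footprints against 117 and 116 RPKM in E85Q isolates 623 and 625, on mRNA of 1283 and 1258 RPKM in WT against 1200 and 1166 RPKM in E85Q. The difference in log2 TE, WT minus E85Q, was 1.10 (adjusted p = 0.0098). KDX1, a kinase-like relative of Slt2, was also higher in WT, by 1.16 (adjusted p = 0.012), on footprints of 5.78 and 5.52 RPKM in WT against 2.13 and 2.14 RPKM in E85Q. The filter used the WT libraries alone, and KDX1 footprints passed it only there, so KDX1 entered this comparison through the group in which it was higher and its call does not support a difference. Between WT and D87E limma called 0 genes (0.0%), with 207 (4.42%) at an unadjusted p below 0.05, which does not show that TE was equal.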

How the data were processed

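Ribosome profiling and RNA-seq were analysed for growing WT, E85Q and D87E cells, 2 isolates each, 12 libraries in all. The authors deposited RPKM values per gene for each library; per the labels, footprints of 18 to 34 nt were counted, and the matched footprint and mRNA libraries came from 1 biological sample, so the ratio pairs them. TopHat2 2.1.1, Bowtie 1.1.2 and build sacCer3 are named, without their roles, in the submitters' processing notes. The table names say that positions were masked; which ones is not given in the sources used here.

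Whole reads per library were recovered from the steps of low RPKM values, with 33 bases of each gene left out as a fitted value; 74.8% to 84.9% of these values lay within 0.05 of a whole read. These reads describe depth only. TE was log2(footprint RPKM / mRNA RPKM) without a pseudocount, for genes of RPKM 5 or more in the 4 growing WT libraries, centred per isolate on its median. limma 3.58.1 in R 4.3.3 (lmFit, eBayes with an mRNA trend) was fitted to 1 mean per genotype over 6 ratios with 3 residual degrees of freedom, two-sided, with Benjamini-Hochberg adjustment over 4680 genes. A 0 in a mutant library was treated as missing. No count test was used. The fit was tested on simulated data.

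Named genes were DIM1, GCN4, HAC1 and CPA1, the 15 highest and 15 lowest called genes that are neither dubious nor overlapping, the highest and lowest of each list, the 10 most abundant messages with footprints under 5 RPKM, and the 5 genes whose isolates differ most; and the other names, among them the 20 highest and 20 lowest genes outside ribosomal proteins, histones and mitochondrial genes, were chosen after their values were seen. Genes and lists were chosen with earlier results of these data known. Sums over ribosomal protein pairs, and length medians without ribosomal protein, histone and mitochondrial genes, were added after the data were seen. Gene positions and lengths come from RefSeq's R64 annotation; lengths include introns. The list names TEF1, TEF2, EFT1, EFT2, HYP2, TIF1, TIF2 and 7 more had no values used here. Python 3.11.15, pandas 2.3.3 and matplotlib 3.10.9 were used for tables and plots.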

Additional observations from a re-analysis of the deposited data

Results flagged for a closer look

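GCN4 differed in TE between genotypes of the same medium. The log2 TE was higher in growing WT than in growing E85Q by 1.10 ± 0.09 (SE, n = 2 isolates each; limma with Benjamini-Hochberg adjustment, adjusted p = 0.0098), and both WT isolates lay above both E85Q isolates. The adjusted p ran from 0.00093 to 0.27 over the alternatives, and the call was lost when starved samples shared the fit, a setting that also added a pseudocount of 1, and when either E85Q isolate was left out.

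KDX1 differed between the same genotypes, higher in WT than in E85Q by 1.16 ± 0.10 (adjusted p = 0.012). All its growing footprint values lay between 2.13 and 5.78 RPKM, near the filter of 5 RPKM. That filter used the WT libraries alone and KDX1 passed it only there, so its direction is favoured by the selection. A pseudocount of 1 lowered the difference to 0.86 (adjusted p = 0.065). The same 2 genes were not called between WT and D87E, and the difference between those contrasts was not tested.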

How the results depend on the processing

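Keeping only genes of 20 RPKM or more left 2847 genes and moved the median gene up by 0.17 on the log2 scale. It gave 1087 genes above and 1052 below, 120 at least 2-fold above and 60 at least 2-fold below, 1 gene between WT and E85Q, and a log2 TE of -0.011 for HTA1. Genes at least 2-fold below numbered 107 with a pseudocount of 5, and 441 both with a filter of 1 RPKM and with no filter and a pseudocount of 1. Between WT and E85Q, 1 gene was called with a pseudocount of 1, of 5, or with no filter, and 0 with all 6 groups in 1 fit and a pseudocount of 1 together, which called 4 between WT and D87E. Without the replicate block, that is with 12 unpaired libraries, 1787 genes were above and 1809 below, and among named genes the calls of HTA1 and LSC2 were lost. Leaving out 1 isolate at a time gave 1608 to 1835 genes above and 1627 to 1826 below, 251 to 286 at least 2-fold above and 281 to 293 at least 2-fold below. It gave 0 to 6 genes between WT and E85Q (0 without either E85Q isolate, 6 without WT 172) and 0 to 1 between WT and D87E. Of 34 list medians, 23 kept their sign under all alternatives run. The 11 others lay between -0.05 (RNA polymerase II and Mediator) and 0.24 (RNA polymerases I and III), apart from autophagy at -0.44. Precision is limited by 2 isolates, and for the most extreme genes by mRNA values near 5 RPKM; intervals from depth cover counting error only.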
